A study of Mus musculus with 24 samples.

Results

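The subject here is a set of 33 genes of glucose breakdown and of the response to low oxygen, measured by RNA sequencing in skin wounds of diabetic mice. The members are a list of symbols, each matched to the Ensembl identifier of the count tables. All 33 of them were found among the 54232 genes counted, and all 33 had enough counts to be among the 18978 genes tested. The wounds were full-thickness punches 6 mm wide in the back of male C57BLKS/J mice with the genotype Lepr (db/db), whose leptin receptor does not work and which become obese and diabetic. Every group carries that genotype, so no non-diabetic skin stands beside these values. The mice were 16 weeks old at wounding and 17.5 weeks old when tissue was taken on day 10, after an alginate bandage had been renewed on day 3. Mice with a control bandage form the group Ctrl (n = 6). In the other groups the bandage carried medium in which primary macrophages had been kept. CM0 (n = 4) stands for M0 macrophages, CM1 (n = 4) for those polarized to M1, CMA (n = 5) to M2a and CMC (n = 5) to M2c. None of the sources used here says how many macrophage cultures each medium came from. The comparisons ask whether the macrophage state behind the medium goes with a difference in the wound.

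Glycolysis splits glucose into pyruvate in the cytosol and yields ATP without oxygen, and lactate dehydrogenase turns the pyruvate into lactate so that the pathway can go on. The transcription factor HIF-1 joins an oxygen-regulated subunit, the product of Hif1a, to a stable partner. With oxygen present, prolyl hydroxylases such as those of Egln1 and Egln3 mark that subunit for destruction, and when oxygen is scarce it persists and binds short DNA motifs near its target genes. Its classical targets include glucose transporters, most glycolytic enzymes, lactate export, mitophagy receptors and collagen hydroxylases. A healing wound is poorly perfused, and its migrating keratinocytes, neutrophils, macrophages and fibroblasts all use glycolysis.

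The wound tissue held the markers of skin: the keratin gene Krt14 lay between 1329 and 4612 counts per 1000000 counts of the library (CPM) over the 24 libraries, and the collagen gene Col1a1 between 20610 and 40270. Library totals ran from 7267879 to 11985292 counts. Summed CPM of 21 skeletal muscle genes ran from 5910 in a CMA wound to 35840 in Ctrl 4. In whole tissue, fewer cells of a type and less RNA per cell cannot be told apart. Values below are CPM after scaling of library sizes unless another scale is named, with the SD over libraries.

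Divided by exon length, the members spanned a wide range of levels, and enzymes from the aldolase step onward held the top places. Aldoa, the aldolase that splits the six-carbon sugar, had 276 ± 66.7 CPM per kilobase of exon (SD, n = 24). Pkm, the pyruvate kinase of the last step, followed with 166 ± 22.6 and Ldha, a lactate dehydrogenase subunit, with 131 ± 20.2 CPM per kilobase. Tpi1, Pgk1 and Eno1, which carry the trioses onward, lay at 77.7 ± 14.2, 74.0 ± 14.5 and 66.7 ± 16.9 CPM per kilobase. Their spreads between wounds overlapped, and differences between these genes were not tested. Pgam1, of the same stretch, lay lower at 32.0 ± 6.17. The highest member outside glycolysis was Egln3, the oxygen-sensing hydroxylase, at 56.6 ± 30.5 CPM per kilobase. At the bottom stood Ankrd37 (2.14 ± 1.24), the brain-type aldolase Aldoc (1.88 ± 0.515), the glucose transporter Slc2a3 (1.43 ± 1.44) and the carbonic anhydrase Car9 (1.29 ± 0.364). Of the glucose transporters, Slc2a1 (44.3 ± 16.9) therefore stood far above Slc2a3 per length.

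**Figure D1:**
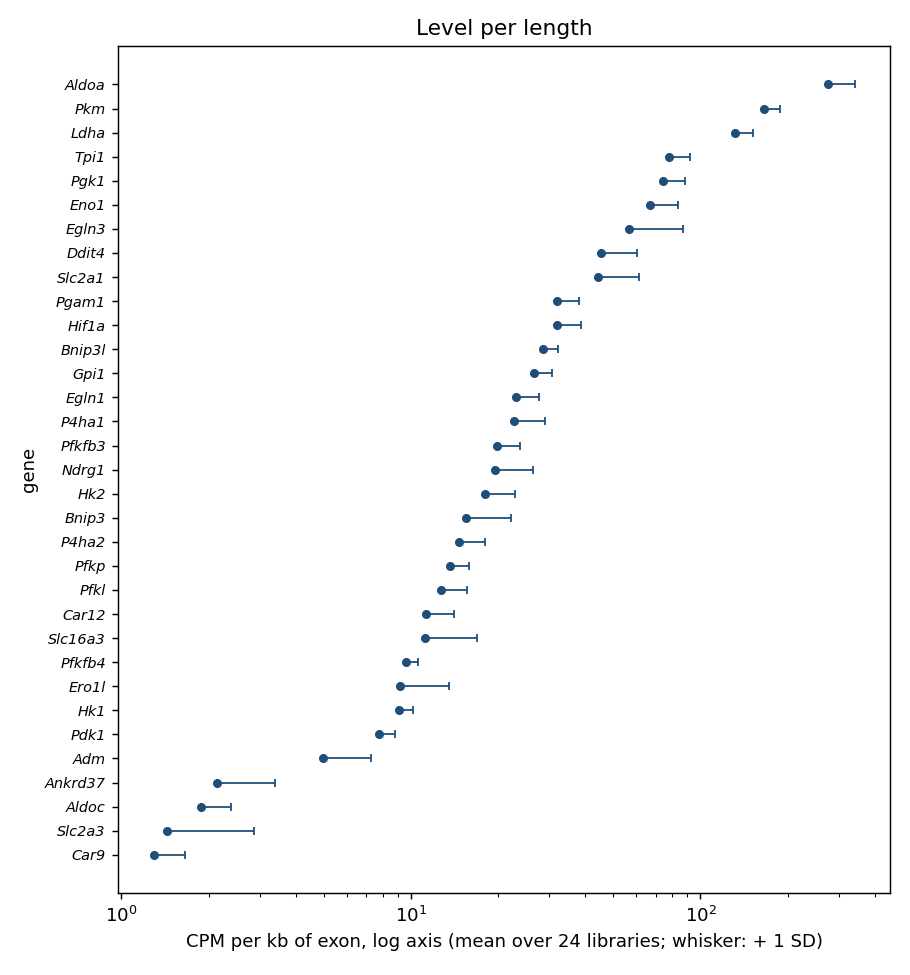
Mean level of each of the 33 genes over 24 libraries in CPM per kilobase of exon on a log axis, with a whisker of 1 SD upward. Aldoa leads at 276 and Car9 is lowest at 1.29.

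The members also differed in how much they varied between wounds of the same group. The SD of log2 CPM within groups was 0.79 for Egln3, 0.76 for Slc2a3, 0.75 for Ankrd37 and 0.74 for Slc16a3, the exporter of lactate. It was smallest for Pfkfb4, a regulator of phosphofructokinase, at 0.12. Its median was 0.35 over the members and 0.26 over all genes tested. Over all wounds Slc2a3 ranged 14.3-fold, from 3.94 CPM in CM0 2 to 56.1 in CM1 3, whereas Bnip3l ranged 1.51-fold.

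A single control wound stood apart from the rest. Ctrl 1 was the highest of the 24 libraries for 20 of the 33 members and among the top 3 for 27 of them. Its median deviation from the members' own means was 0.53 on the log2 scale, against 0.01 over all genes. CMA 4 (0.38), CMC 1 (0.29) and CM1 3 (0.27) also lay high, and 31, 29 and 28 of their 33 members were above the mean. The other end held Ctrl 3, lowest for 11 members with a median deviation of -0.34, together with CMC 5 (-0.29), CMA 5 (-0.28) and Ctrl 2 (-0.27). Ctrl 4 (-0.25), Ctrl 5 (-0.25) and Ctrl 6 (-0.07) lay below 0 too, so Ctrl 1 was the only high control. CMC 4 (0.19) also had 31 members above the mean. High and low wounds thus occurred under CMA and CMC, and the controls were low apart from Ctrl 1.

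**Figure D2:**
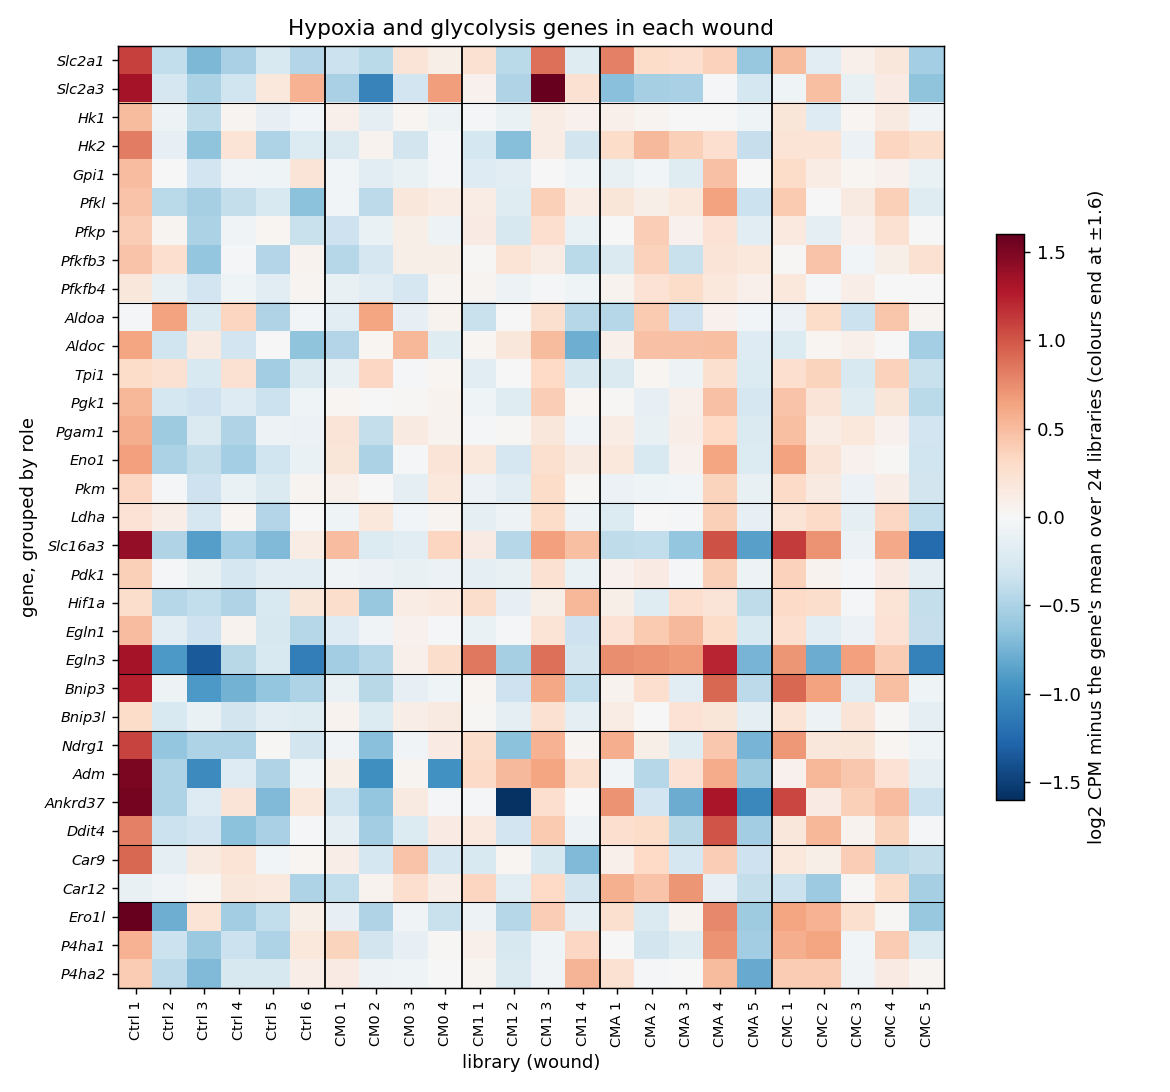
Log2 CPM of each of the 33 genes (rows, grouped by role) in each of the 24 wounds (columns, grouped by bandage), minus the gene's mean over all wounds; red is above and blue below the mean. The column of Ctrl 1 is red for 31 genes, and CMA 4 and CMC 1 are red for 31 and 29.

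No member passed the test in any comparison. With edgeR's quasi-likelihood test fitted over all genes and Benjamini-Hochberg adjustment, 0 of 33 members had an adjusted p under 0.05 (hereafter called) in CM0, CM1, CMA or CMC against Ctrl. The same held for the mean of the 4 media against Ctrl, for the 6 comparisons between media and for the test of any difference among the 5 groups. The background was equally empty, since 0% of the 18978 genes was called in each of these 12 comparisons. DESeq2 and limma called 0 members as well. Of all genes limma called 0 in each comparison, and DESeq2 called 4 for CMC, 1 for CM1, 1 for CM0 and 0 for CMA against Ctrl. At an unadjusted p under 0.05 there were 3 members for CMA against Ctrl (6.61% of all genes), 1 for CMC (8.55%), 1 for CM1 (7.04%), 0 for CM0 (4.92%) and 1 for the mean of the media (9.42%). These 5 comparisons share the same 6 control wounds. Between media the unadjusted count was 3 for CMA against CM1 (4% of all genes) and 1 in each of the other 5, namely CM1 (2.22%), CMA (3.14%) and CMC (3.72%) against CM0, CMC against CM1 (2.71%) and CMC against CMA (6.16%). The test of any difference had 2 (4.65%).

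The sign of the fitted differences was counted as well. The members are not 33 separate observations, since they rose and fell together over the 24 wounds. The median Pearson correlation of log2 CPM for a pair of members was 0.526. A count far from the share of all genes can therefore come from a few wounds. Of the 33 members, 28 had a fitted difference above 0 in CMC against Ctrl (48.4% of all genes did), 26 in CM1 (48.7%), 24 in CMA (46.7%) and 17 in CM0 (47.4%). Their median log2 fold changes were 0.13, 0.09, 0.14 and 0.01 in that order, against -0.01 over all genes in each. The smallest adjusted p of any member was 0.576, 0.702, 0.725 and 0.947. Without CM1 3, which lay high for many members, 14 members rather than 26 were above 0 in CM1 (46.8% of all genes). For the mean of the media 25 members were above 0 (47.1%). Between media the count was 29 for CMC against CM0 (49.2% of all genes), 25 for CMA against CM0 (50.9%), 24 for CM1 against CM0 (50.9%), 26 for CMC against CM1 (49.2%), 22 for CMA against CM1 (50.2%) and 21 for CMC against CMA (50.9%).

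Single wounds bore on these counts and medians. Without CM1 3 the median in CM1 against Ctrl was -0.03, and without Ctrl 3 it was 0.02. The median in CMA against Ctrl was 0.02 without CMA 4, 0.09 without Ctrl 3 and 0.23 without CMA 5. In CMC it was 0.07 without Ctrl 3, 0.09 without CMC 1 and 0.20 without CMC 5. In CM0 it ran from -0.06 (without Ctrl 3) to 0.01 with any wound but Ctrl 1 left out. Between media, 16 rather than 24 members were above 0 for CM1 against CM0 without CM1 3 (51.2% of all genes). For CMA against CM1 the count was 14 without CMA 4 (50.3%) and 29 without CMA 5 (51.1%). For CMC against CM1 it was 17 without CMC 1 (49% of all genes), and for CMC against CMA it was 12 without CMC 1 (51.7%) and 14 without CMA 5 (50.3%).

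**Figure D3:**
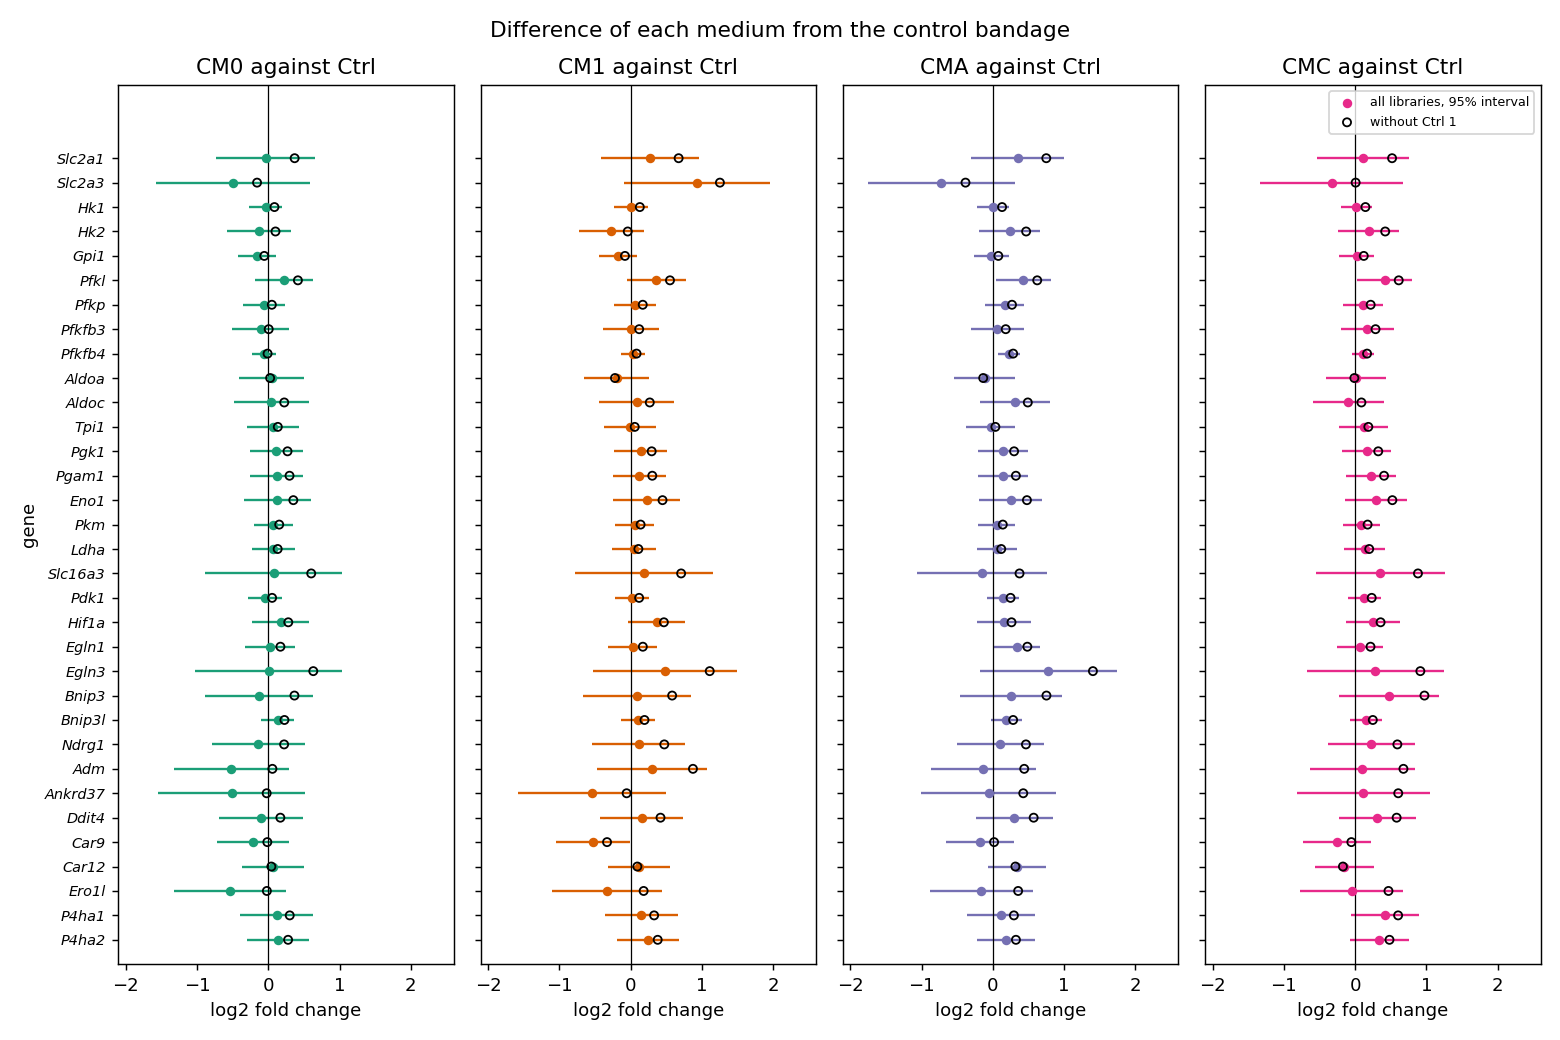
Fitted log2 fold change of each of the 33 genes in each medium against Ctrl: filled points with 95% intervals from all 24 libraries, open circles from the fit without Ctrl 1. Most open circles lie to the right of the filled points, and 28 of 33 filled points lie above 0 in the CMC panel.

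These values shifted upward when Ctrl 1 was left out. That wound was singled out because it was highest for 20 of the 33 members, so the shift follows from the choice. The p values and overlaps without it, here and below, describe that choice and are no separate evidence. The members with a fitted difference above 0 were then 30 for CMC (48.5% of all genes), 28 for CM1 (48.3%), 31 for CMA (46.5%) and 27 for CM0 (47.3%). Their medians were 0.32, 0.20, 0.32 and 0.15 on the log2 scale. At an unadjusted p under 0.05 there were 17 members for CMC (10.7% of all genes), 9 for CM1 (9.51%), 15 for CMA (9.47%), 3 for CM0 (6.42%) and 17 for the mean of the media (12.8%). Still 0 members were called by edgeR, with smallest adjusted p values of 0.352, 0.477, 0.355, 0.757 and 0.172. Members whose wounds no longer overlapped with the 5 controls left were Pgk1 for CM0 (1 of 33, 1.91% of all genes), Pfkl, Pgam1 and Adm for CM1 (3, 2.37%), Pfkfb4 for CMA (1, 1.02%) and Pfkl for CMC (1, 1.31%), all higher than the controls. With all 6 controls it was 0 members in each, where 0.801% (CM0), 1.1% (CM1), 0.327% (CMA) and 0.543% (CMC) of all genes did not overlap. Without any 1 of the other 23 libraries, the unadjusted count stayed between 0 and 6 in these comparisons.

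Markers of other cell types stood high in the same control wound. Summed CPM of the neutrophil list reached 1551 in Ctrl 1, where the median of the 6 controls was 563 and the lowest 374. Summed CPM of the wound keratinocyte list, genes that epidermis turns on around a wound such as Krt6a, Krt16 and Sprr1b, reached 6407 there against a control median of 2248. Both sums were also high in CM0 4 (1558 and 7118) and CMA 3 (1579 and 6547). The members' median deviations in those 2 wounds were 0.05 and -0.004 on the log2 scale. In CM1 3 the sums were 1871 and 6128, and in CMC 1 they were 1348 and 7165, with median deviations of 0.27 and 0.29. The total of Ctrl 1, 9510741 counts, lay inside the range of the others. The mean log2 CPM of mitochondrial genes was 6.89 in Ctrl 1, with controls between 6.88 and 7.27. The part of these lists in the height of Ctrl 1 was not tested.

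Glucose uptake is the entry step. Slc2a1, the basal glucose transporter, had 88.8 CPM in the lowest control wound, a median of 108 and 313 in Ctrl 1, the highest. In CM1 its values were 174, 108, 271 and 128, and in CMA they were 255, 179, 176, 189 and 96.0 CPM. Ctrl 1 lay above every treated wound, while the other controls lay at or below 123, so the groups overlapped. Slc2a3, the high-affinity transporter of neurons and of blood cells such as neutrophils, had 8.89, 6.00, 56.1 and 10.1 CPM in CM1. The 56.1 of CM1 3 was the highest of all wounds, and the other CM1 wounds lay within the control range of 5.91 to 21.7.

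That wound decided the fitted differences of Slc2a3. CM1 against Ctrl gave a log2 difference of 0.93 (SE 0.49, edgeR adjusted p 0.717), and -0.35 without CM1 3. Between media, CM1 exceeded CM0 by 1.42 (SE 0.56, unadjusted p 0.0186, adjusted p 1). CMA was lower than CM1 by a log2 difference of -1.65 (unadjusted p 0.00521, adjusted p 0.995), and CMC by -1.26 (unadjusted p 0.0245, adjusted p 1), which became 0.03 without CM1 3. Values of Slc2a3 in CM0 were 5.86, 3.94, 6.85 and 13.6 CPM. CM1 3 also had the highest summed neutrophil markers of all wounds, 1871 CPM.

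The hexose phosphate steps held Pfkl and Pfkfb4, both among the members with the smallest p values. Pfkl encodes the liver-type phosphofructokinase, which commits sugar to glycolysis. Its control values ran from 52.1 to 114 CPM with a median of 62.2, and Ctrl 1 supplied the highest. In CM1 they were 89.2, 71.9, 107 and 89.6 CPM, in CMA 94.0, 88.2, 92.7, 128 and 65.2, and in CMC 110.5, 82.2, 91.5, 108 and 72.2. Apart from Ctrl 1, no control exceeded 69.8, and every CM1 and CMC wound lay above that value. Against Ctrl, CMC was higher by 0.42 (SE 0.19, adjusted p 0.576), CMA by 0.43 (SE 0.19, adjusted p 0.733) and CM1 by 0.36 (SE 0.20, edgeR adjusted p 0.717) on the log2 scale. For the mean of the 4 media it was 0.36 (SE 0.15, unadjusted p 0.0249, edgeR adjusted p 0.478), and 0.55 without Ctrl 1 (adjusted p 0.172).

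Pfkfb4 makes and removes the sugar phosphate that activates phosphofructokinase. Its CMA values of 48.3, 54.7, 57.0, 52.2 and 49.0 CPM all lay above those of CM0, which were 42.6, 41.1, 38.6 and 48.0. They also lay above those of CM1, which were 48.0, 44.1, 45.8 and 44.1, while the controls ran from 37.7 to 52.7. Of the 33 members it was the only one whose wounds did not overlap between CMA and CM0 (0.912% of all genes) or between CMA and CM1 (1.06%). CMA exceeded Ctrl by a log2 difference of 0.23 (SE 0.08, unadjusted p 0.00514, edgeR adjusted p 0.725), CM0 by 0.29 (unadjusted p 0.00182, adjusted p 1) and CM1 by 0.20 (unadjusted p 0.0252, adjusted p 0.995). CMC exceeded CM0 by 0.18 (unadjusted p 0.0463, adjusted p 0.998) and Ctrl by 0.11 (adjusted p 0.692). In the test of any difference among the groups Pfkfb4 had the smallest p of the members, 0.0128 (adjusted p 0.929), followed by Slc2a3 at 0.0333 and Pfkl at 0.16 (edgeR adjusted p 0.929 for both).

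Among the other enzymes of the upper pathway, Hk2, the inducible hexokinase, had 121.5, 121.5, 98.0, 132 and 127 CPM in CMC, against 85.9, 65.2, 114 and 85.2 in CM1. CMC exceeded CM1 by 0.46 on the log2 scale (SE 0.23, unadjusted p 0.0588, edgeR adjusted p 1), and the highest CM1 wound overlapped with CMC. CMA exceeded CM1 by 0.50 (SE 0.23, unadjusted p 0.0388, edgeR adjusted p 0.995). Gpi1, the glucose phosphate isomerase, was lower in CM0 than in Ctrl by a log2 difference of -0.16 (SE 0.13, edgeR adjusted p 0.947), which was -0.06 without Ctrl 1. Hk1, Pfkp and Pfkfb3 differed from Ctrl by 0.17 or less in either direction on the log2 scale in every medium. Without Ctrl 1 the largest of these differences were 0.29 for Pfkfb3 in CMC, 0.27 for Pfkp in CMA and 0.14 for Hk1 in CMC. Exons of Pfkp share 748 bases with those of Pitrm1 on the other strand, which had 16088 counts against 41188. The count of Pfkp is therefore uncertain, to a degree that was not measured.

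The next genes lead from the trioses to pyruvate and lactate. Eno1, the enolase, had a control median of 273 CPM with 549 in Ctrl 1, and a mean of 317 ± 118. Its means with the media were 389 ± 97.0 (CMC), 378 ± 99.0 (CMA), 371 ± 56.4 (CM1) and 346 ± 72.6 (CM0). Aldoa was 828 ± 240 CPM in Ctrl and 725 ± 167 to 857 ± 241 in the media. Ldha was 416 ± 70.5 in Ctrl and 431 ± 62.5 to 457 ± 96.4 in the media. The groups of each of these genes overlapped. Slc16a3, the lactate exporter, ran from 28.4 to 140 CPM in Ctrl and from 22.4 to 115 in CMC, so its spread within a group exceeded its differences between groups. Pdk1, a kinase that keeps pyruvate out of the mitochondria, was 58.2 ± 10.3 CPM in Ctrl and 56.4 ± 0.931 to 64.5 ± 8.33 in the media.

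**Figure D4:**
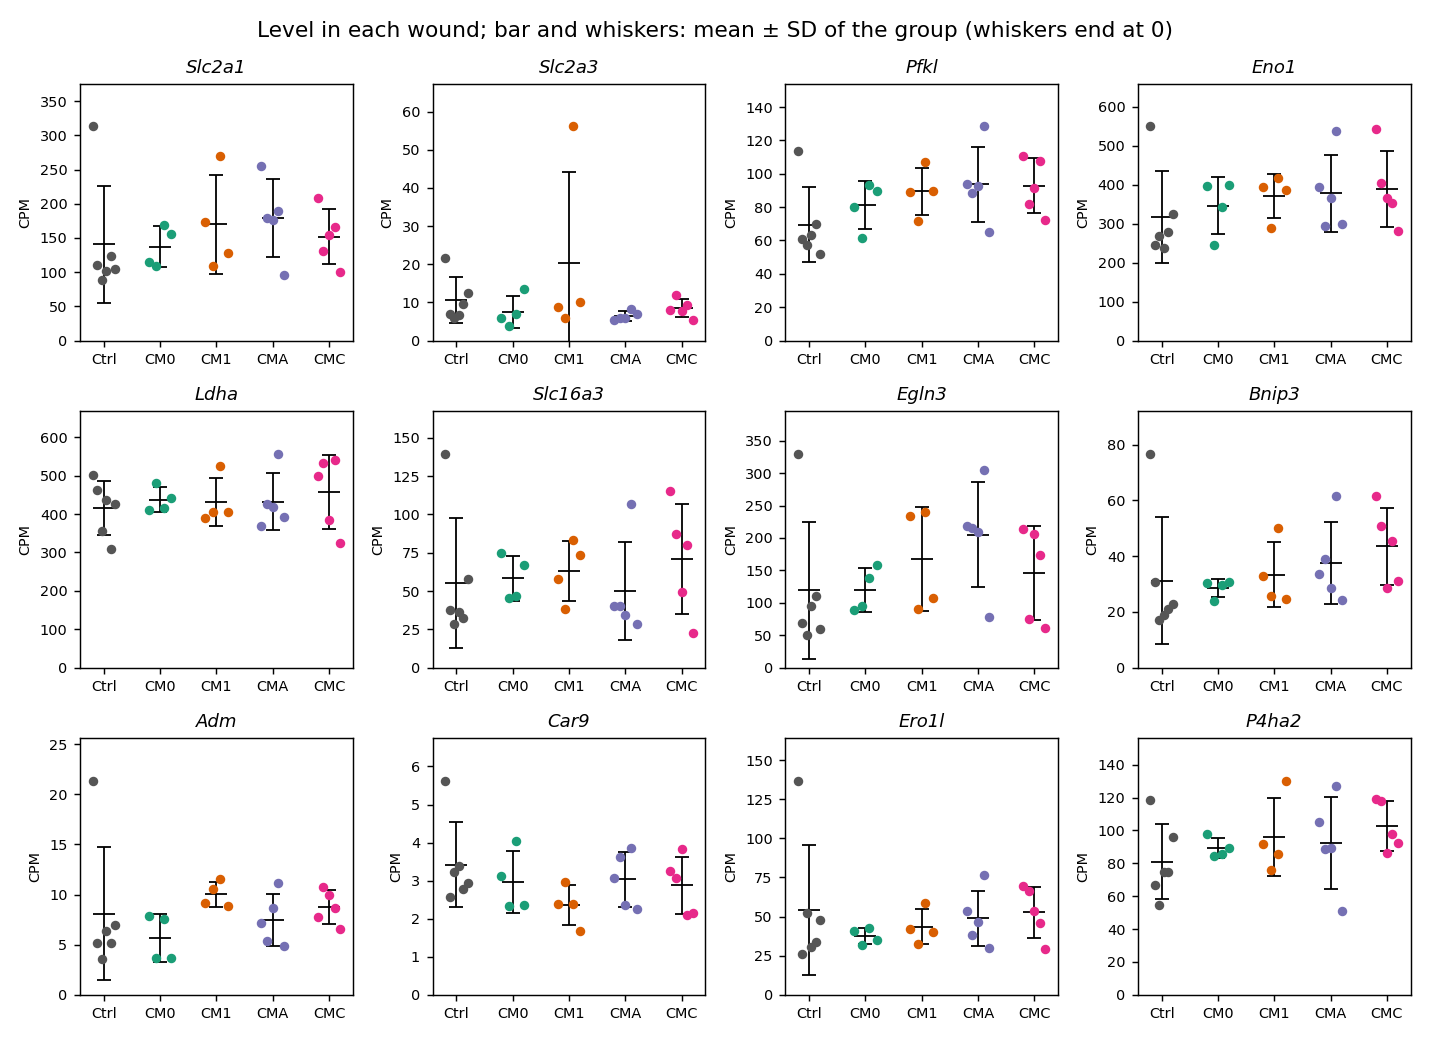
CPM of 12 of the genes in each wound (points, 1 per library), by bandage, with the mean and SD of each group. For Slc2a1, Eno1, Bnip3, Adm and Ero1l the topmost control point is Ctrl 1, and for Slc2a3 the topmost point is CM1 3 at 56.1.

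Oxygen sensing comprises the regulated HIF subunit and the hydroxylases that control it. Hif1a had control values from 132 to 224 CPM with a median of 147, and 224, 168, 196 and 265 CPM in CM1. All 4 CM1 wounds exceeded the control median and overlapped with the upper controls. CM1 exceeded Ctrl by 0.36 on the log2 scale (SE 0.19, adjusted p 0.716), and the mean of the media by 0.24 (SE 0.14, edgeR adjusted p 0.600). Transcript of Hif1a is not a measure of its protein, which oxygen controls after translation. Egln1 had 96.1, 109, 117, 99.9 and 68.8 CPM in CMA against 59.5 to 115 in Ctrl, so 4 of the 5 exceeded every control but Ctrl 1. The difference was 0.34 on the log2 scale (SE 0.16, unadjusted p 0.0418, edgeR adjusted p 0.733). CMA exceeded CM0 by 0.31 (adjusted p 1) and CMC was lower than CMA by a log2 difference of -0.27 (edgeR adjusted p 0.795) for that gene.

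Egln3, itself a strongly HIF-driven gene, varied most. It had 218, 215, 209, 304 and 78.0 CPM in CMA and 51.2 to 330 in Ctrl with a median of 82.2. Apart from CMA 5, the CMA wounds lay above every control but Ctrl 1. CMA exceeded Ctrl by 0.78 on the log2 scale (SE 0.46, unadjusted p 0.105, edgeR adjusted p 0.765), and without Ctrl 1 the difference was 1.40 (SE 0.39, unadjusted p 0.00171, edgeR adjusted p 0.375).

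The mitophagy receptors Bnip3 and Bnip3l tag mitochondria for removal. Bnip3 had 61.6, 50.9, 28.6, 45.5 and 30.9 CPM in CMC, and 17.1 to 76.8 in Ctrl with a median of 22 CPM. Every CMC wound exceeded the control median, and 4 of them exceeded every control but Ctrl 1. CMC exceeded CM0 by 0.60 (SE 0.38, unadjusted p 0.128, adjusted p 0.998). CMC exceeded Ctrl by 0.47 on the log2 scale (SE 0.34, unadjusted p 0.178, edgeR adjusted p 0.716), and by 0.97 without Ctrl 1 (SE 0.26, unadjusted p 0.00103, edgeR adjusted p 0.352). Bnip3l differed from Ctrl by 0.13 (SE 0.11, adjusted p 0.947) in CM0, 0.19 (SE 0.11, adjusted p 0.743) in CMA and 0.15 (SE 0.08, edgeR adjusted p 0.592) in the mean of the media. Without Ctrl 1 these were 0.23, 0.28 and 0.24.

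Among the other hypoxia-induced genes, Adm encodes the vasodilator peptide adrenomedullin. It had 7.87, 3.63, 7.57 and 3.64 CPM in CM0 and 9.11, 10.6, 11.5 and 8.85 in CM1. Those 2 groups did not overlap, which held for 1 of 33 members and for 1.96% of all genes. CM1 exceeded CM0 by 0.82 on the log2 scale (SE 0.42, unadjusted p 0.0615, edgeR adjusted p 1). CM0 was lower than Ctrl by a log2 difference of -0.52 (SE 0.39, adjusted p 0.947), which became 0.06 without Ctrl 1, whose 21.3 CPM stood above 6.99 in the next control. Ndrg1, a stress-response gene, was 123 ± 68.9 CPM in Ctrl and 112 ± 24.6 to 144 ± 31.9 in the media. Ddit4, an inhibitor of mTORC1, was 71.7 ± 31.4 in Ctrl and 67.1 ± 13.1 to 89.3 ± 14.4 in the media. Ankrd37 was at 0.822 to 8.75 CPM, and its exons share 57 bases with Ufsp2 and 349 with Lrp2bp on the other strand. Since reads were not assigned to a strand and Ufsp2 had 7181 counts against 731, the count of Ankrd37 is uncertain. The degree was not measured.

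The carbonic anhydrases handle the acid that glycolysis makes. Car9, a classical marker of hypoxic tissue, had 2.39, 2.96, 2.39 and 1.68 CPM in CM1, and 2.58 to 5.62 in Ctrl with a median of 3.08. Every CM1 wound lay below that median, and the ranges overlapped. CM1 was lower than Ctrl by a log2 difference of -0.53 (SE 0.25, 95% interval -1.04 to -0.01, unadjusted p 0.0445, edgeR adjusted p 0.702), which was -0.33 without Ctrl 1. Car9 overlaps an antisense gene, Gm12454, that had 68 counts against its own 671. The mean of the media was lower by a log2 difference of -0.29 (SE 0.18, edgeR adjusted p 0.600), which was -0.09 without Ctrl 1. Car12 had 123, 115, 136, 76.0 and 64.1 CPM in CMA and 65.7, 55.7, 84.1, 103 and 57.4 in CMC. CMC was lower than CMA by -0.49 (SE 0.21, unadjusted p 0.0273, edgeR adjusted p 0.795), with overlapping wounds.

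Collagen and disulfide folding completes the list. P4ha1 and P4ha2 are the catalytic subunits of the prolyl hydroxylases that stabilize collagen. P4ha1 had 134, 140, 86.8, 118 and 76.8 CPM in CMC against 59.1 to 132 in Ctrl, a log2 difference of 0.42 (SE 0.23, adjusted p 0.635). P4ha2 had 119, 118, 86.2, 97.7 and 92.2 in CMC against 54.5 to 118 in Ctrl, a log2 difference of 0.34 (SE 0.20, edgeR adjusted p 0.648). Both sets of CMC wounds lay above the control medians of 70.5 and 74.9. Ero1l, an oxidase of the endoplasmic reticulum, had 137 CPM in Ctrl 1 and 25.9 to 52.1 in the other controls. CM0 was lower than Ctrl for that gene by a log2 difference of -0.54 (SE 0.38, adjusted p 0.947), which was -0.02 without Ctrl 1.

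Further genes of the same pathways were compared too. Of 32 other genes of glucose metabolism 29 were tested, and of 34 other hypoxia genes 34 were tested. In each medium against Ctrl edgeR called 0 of either list. At an unadjusted p under 0.05 there were 2, 2, 1 and 1 of the first list in CM0, CM1, CMA and CMC in that order. Of the second list there were 1, 1, 5 and 2. The shares of all genes were 4.92%, 7.04%, 6.61% and 8.55%. The median log2 fold changes of the first list were -0.03, -0.05, -0.10 and 0.02, and those of the second 0.03, 0.10, 0.09 and 0.18. Of the second list 31 of 34 had a fitted difference above 0 in CMC, where 48.4% of all genes did. These genes were measured in the same wounds, so they are not 34 separate observations either. The smallest p values in the first list belonged to Fbp1, an enzyme of glucose synthesis, in 3 of the 5 comparisons with Ctrl. Its log2 fold change for the mean of the media was -2.86 (SE 0.77, unadjusted p 0.00131, edgeR adjusted p 0.378), on levels of 6.29 ± 12.5 CPM in Ctrl and 0.452 ± 0.396 to 2.13 ± 2.76 in the media. In the second list Arnt2, a partner of HIF-type factors, differed by 0.56 in CM1 (unadjusted p 0.0126, adjusted p 0.695), 0.65 in CMC (unadjusted p 0.00279, adjusted p 0.546) and 0.50 in the mean of the media (edgeR adjusted p 0.412). Rora, a nuclear receptor gene, differed by 0.48 in CMA (unadjusted p 0.00432, adjusted p 0.725) and 0.35 in CM0 (unadjusted p 0.0372, edgeR adjusted p 0.946). Of the first list, Slc16a1, a lactate carrier, differed by 0.42 in CMA (unadjusted p 0.0134, adjusted p 0.725) and Bpgm, the bisphosphoglycerate mutase, by 0.37 in CM0 (unadjusted p 0.0211, edgeR adjusted p 0.946).

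The members moved together from wound to wound. Over 24 wounds 326 of their 528 pairs had a Pearson correlation of log2 CPM with a Benjamini-Hochberg adjusted permutation p under 0.05, and all 326 were positive. The median r of a pair was 0.526, and 53.8% of the pairs exceeded 0.5, as did 2.83% of the 180072753 pairs of all genes tested. Without Ctrl 1 the median was 0.456 and 220 pairs exceeded 0.5, against 284 with it. These correlations all rest on the same 24 libraries and share their depth.

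Of the 5 closest pairs, 4 joined enzymes of the lower pathway or the lactate exporter, and the other joined Pdk1 with the mitophagy receptor Bnip3. Tpi1 with Ldha had r = 0.929 and Spearman's rho 0.916, Pgam1 with Eno1 0.922 and 0.882, and Pgk1 with Pkm 0.920 and 0.876. Pkm with Slc16a3 had 0.914 and 0.880, and Pdk1 with Bnip3 0.909 and 0.789. Each of these r had a permutation p of 1e-05, the smallest that 100000 permutations can give, and an adjusted p of 0.000106. Of the rho, those of the first 4 pairs had the same p of 1e-05 (adjusted 0.000189) and that of Pdk1 with Bnip3 had 3e-05 (adjusted 0.000344). After removing the group means r was 0.933, 0.916, 0.922, 0.934 and 0.915, and without the 2 wounds farthest on the first gene it was 0.902, 0.907, 0.886, 0.885 and 0.859. Without Ctrl 1 it was 0.926, 0.907, 0.907, 0.900 and 0.886.

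Members differed in how far they took part. The median r with the other 32 members was 0.709 for Eno1, 0.693 for Pgk1, 0.684 for Bnip3 and 0.676 for Pdk1. It was 0.285 for Pfkfb3, -0.004 for Car12 and -0.032 for Aldoa. The member with the highest level per length, Aldoa, thus had the lowest median r.

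The promoters of the 9 genes in these 5 pairs are shown, because the core motif bound by HIF is short enough to be read in them. RefSeq gave 40 promoters for 30 members on GRCm38.p6, each from 250 bases before to 50 after a start. The motifs searched were ACGTG, the core that HIF prefers, and GCGTG, its weaker form, on both strands (CACGT and CACGC when read on the printed strand). The palindrome CACGTG counts as 2 overlapping matches. Of the 40 promoters 23 (57.5%) held ACGTG, as did 19.6% of all 32851 promoters of the same length. Either motif was in 33 (82.5%), against 43.8% of all. Some promoters of a gene overlap. By gene, 21 of the 30 members had ACGTG in a promoter, against 21.8% of all genes. Many members are classical HIF targets, so a higher share can come from how the list was chosen. The background was not matched for base composition. For each gene the following are the 250 bases before the first start in the RefSeq table, 5′ to 3′ on the strand of the gene, with matches in capitals.
Tpi1: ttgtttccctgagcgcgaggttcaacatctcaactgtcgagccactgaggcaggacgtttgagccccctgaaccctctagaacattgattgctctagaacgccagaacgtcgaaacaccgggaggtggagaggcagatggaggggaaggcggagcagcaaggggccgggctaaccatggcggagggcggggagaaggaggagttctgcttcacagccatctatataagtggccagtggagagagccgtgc
Ldha: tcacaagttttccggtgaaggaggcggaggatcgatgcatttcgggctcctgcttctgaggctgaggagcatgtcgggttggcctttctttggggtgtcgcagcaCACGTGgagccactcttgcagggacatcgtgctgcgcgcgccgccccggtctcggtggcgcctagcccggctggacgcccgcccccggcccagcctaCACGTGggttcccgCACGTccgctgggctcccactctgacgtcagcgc
Pgam1: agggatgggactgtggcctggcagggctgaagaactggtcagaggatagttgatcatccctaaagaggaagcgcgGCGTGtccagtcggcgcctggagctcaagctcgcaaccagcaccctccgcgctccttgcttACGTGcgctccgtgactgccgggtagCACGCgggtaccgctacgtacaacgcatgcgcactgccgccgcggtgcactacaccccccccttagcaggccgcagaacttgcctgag
Eno1: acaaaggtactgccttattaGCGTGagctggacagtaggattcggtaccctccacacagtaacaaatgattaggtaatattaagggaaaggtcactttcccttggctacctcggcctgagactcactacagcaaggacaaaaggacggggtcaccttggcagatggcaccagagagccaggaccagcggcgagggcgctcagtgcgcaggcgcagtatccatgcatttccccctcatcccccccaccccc
Pgk1: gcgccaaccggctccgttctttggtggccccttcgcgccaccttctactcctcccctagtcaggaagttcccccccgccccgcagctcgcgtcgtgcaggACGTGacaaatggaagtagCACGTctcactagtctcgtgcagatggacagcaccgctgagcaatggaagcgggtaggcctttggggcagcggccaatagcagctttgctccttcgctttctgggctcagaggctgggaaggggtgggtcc
Pkm: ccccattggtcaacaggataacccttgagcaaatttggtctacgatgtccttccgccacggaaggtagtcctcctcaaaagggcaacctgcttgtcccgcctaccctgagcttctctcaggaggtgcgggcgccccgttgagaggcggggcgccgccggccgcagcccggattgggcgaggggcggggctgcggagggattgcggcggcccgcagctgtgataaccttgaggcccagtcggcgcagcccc
Slc16a3: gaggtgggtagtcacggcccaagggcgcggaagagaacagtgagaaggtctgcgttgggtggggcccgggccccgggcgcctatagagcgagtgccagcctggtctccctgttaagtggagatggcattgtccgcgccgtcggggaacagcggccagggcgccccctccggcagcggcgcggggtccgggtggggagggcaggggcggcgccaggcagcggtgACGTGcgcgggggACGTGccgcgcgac
Pdk1: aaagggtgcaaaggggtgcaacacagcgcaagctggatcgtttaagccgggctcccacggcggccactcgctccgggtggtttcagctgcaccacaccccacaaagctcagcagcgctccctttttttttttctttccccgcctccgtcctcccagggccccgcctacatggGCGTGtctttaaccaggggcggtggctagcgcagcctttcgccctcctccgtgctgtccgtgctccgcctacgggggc
Bnip3: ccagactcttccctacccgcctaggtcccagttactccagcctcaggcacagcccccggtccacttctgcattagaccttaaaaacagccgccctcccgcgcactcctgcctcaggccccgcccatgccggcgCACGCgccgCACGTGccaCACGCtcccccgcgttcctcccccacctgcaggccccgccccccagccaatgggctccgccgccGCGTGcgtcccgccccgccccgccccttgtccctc

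These stretches lie, with the strand of the gene, at chr6:124814159-124814408 (minus, Tpi1), chr7:46845554-46845803 (plus, Ldha), chr19:41911621-41911870 (plus, Pgam1), chr4:150236458-150236707 (plus, Eno1) and chrX:106186850-106187099 (plus, Pgk1). The others lie at chr9:59656326-59656575 (plus, Pkm), chr11:120948817-120949066 (plus, Slc16a3), chr2:71872974-71873223 (plus, Pdk1) and chr7:138909507-138909756 (minus, Bnip3). The Ldha stretch holds 5 matches of ACGTG, as CACGTG starting 145 and 48 bases before the start and as CACGT 34 bases before it. Pgk1 has matches 150 and 131 bases before its start and Slc16a3 27 and 14 bases before its own. Bnip3 has a CACGTG at 108 bases beside GCGTG matches at 117, 99 and 35 bases, and Pgam1 has ACGTG at 114 bases beside GCGTG matches at 175 and 88. The stretches of Eno1 and Pdk1 hold no ACGTG and 1 GCGTG each, at 230 and 78 bases. Those of Tpi1 and Pkm hold neither motif. Thus 5 of the 9 hold ACGTG, and in each of the pairs Tpi1 with Ldha, Pgam1 with Eno1, Pgk1 with Pkm, Pkm with Slc16a3 and Pdk1 with Bnip3 only 1 gene does. Aldoa, with the lowest median r, has ACGTG in 2 of its 3 promoters, which overlap and share the same match. A later start of Ldha has no ACGTG within its promoter, and a later start of Pkm has 2. A match is a row of letters and not a measured binding site, and no binding was measured here.

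The members also followed the markers of particular cell types from wound to wound. For 7 marker lists a slope was fitted for every gene, in the same edgeR model as the groups, as the difference in log2 expression per 1 unit of the list's mean log2 CPM. On the neutrophil list 20 of 33 members were called, all 20 with a slope above 0, where 3.85% of all genes were called and 3.31% with a slope above 0. On the wound keratinocyte list 10 of 33 were called, all above 0 (4.39% of all genes, 3.28% with a slope above 0). The score of either list is itself made from these libraries, and the 2 scores ran together over the 24 wounds (r = 0.764, permutation p 4e-05; rho = 0.727, permutation p 0.00015; r = 0.767 without the 2 wounds farthest on the neutrophil score).

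On the neutrophil list Eno1 had a slope of 0.37 (SE 0.04, adjusted p 9e-07). Pgam1, which moves the phosphate just before enolase acts, had 0.27 (SE 0.04, adjusted p 0.000157), and Slc16a3 had 0.68 (SE 0.10, edgeR adjusted p 0.000244). The largest slope was that of Slc2a3 at 0.73 (SE 0.12, adjusted p 0.00101). The called members ran down to 0.15 for Pdk1 and included Hif1a, Bnip3, Adm, Ddit4 and Ero1l. Of this list's 18 genes 16 were tested, its defining gene Ly6g was at 0 in 19 of 24 libraries, and S100a8 ran from 6.46 to 214 CPM. Some of its genes, S100a8, S100a9, Lcn2 and Asprv1 among them, are also expressed by keratinocytes. With a shorter list that leaves out several genes shared with keratinocytes or mast cells, 21 members were called (4.59% of all genes). That list had 10 genes, of which 8 were tested.

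On the wound keratinocyte list the smallest p values were those of Bnip3l, with a slope of 0.25 (SE 0.03, adjusted p 2.87e-05), Pgam1, with 0.35 (SE 0.06, adjusted p 0.000797), and Eno1, with 0.43 (SE 0.07, edgeR adjusted p 0.00105). The largest slope was 0.93 (SE 0.16, adjusted p 0.00112) for Egln3, and Slc2a1 had 0.59 (SE 0.12, adjusted p 0.00435). With both scores in 1 fit, 8 members kept a called slope on the neutrophil list (2.57% of all genes) and 1 on the wound keratinocyte list (3.02%). The 8 were Slc2a3, Gpi1, Pgk1, Eno1, Pkm, Slc16a3, P4ha1 and Ddit4, and the 1 was Bnip3l at 0.19 (SE 0.05, adjusted p 0.0474). Slc2a3 then had 1.13 (SE 0.18, edgeR adjusted p 0.0018).

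Ctrl 1 stood high on both lists and bore on both counts. Without it 12 members were called on the neutrophil list (1.75% of all genes) and 6 on the wound keratinocyte list (2.57%). Eno1 kept a neutrophil slope of 0.33 (SE 0.04, adjusted p 6e-05) and Bnip3l a wound keratinocyte slope of 0.21 (SE 0.03, edgeR adjusted p 0.000649). Slc2a3 had 0.74 (SE 0.14, adjusted p 0.0111) without Ctrl 1, and 0.47 (SE 0.09, adjusted p 0.00624) when CM1 3 was left out too. Whether the RNA of these members came from neutrophils, from keratinocytes or from other cells of the same wounds was not tested.

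**Figure D5:**
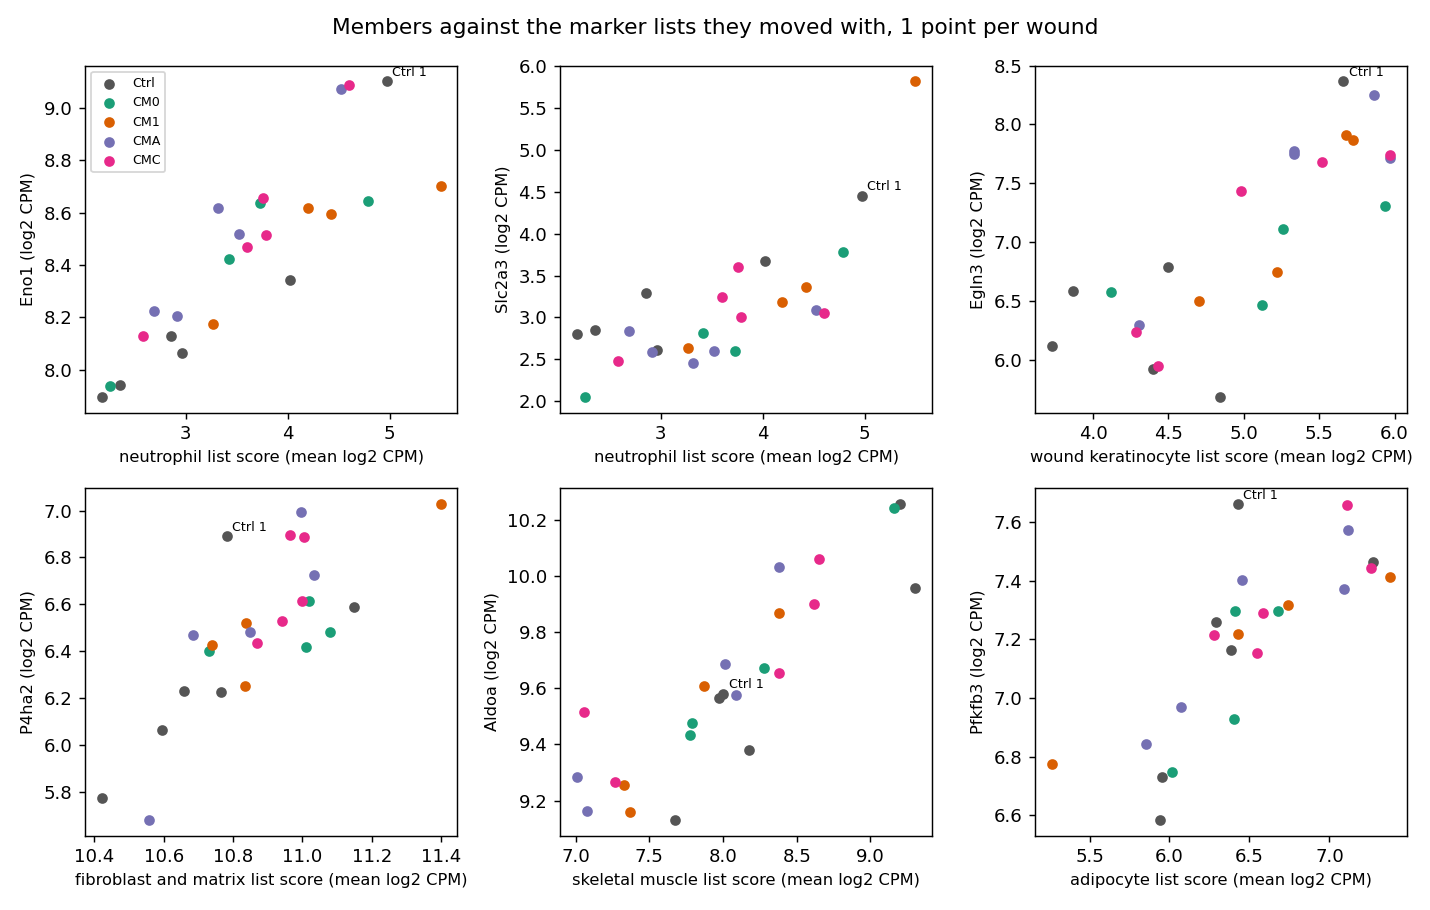
Log2 CPM of 6 of the genes against the score (mean log2 CPM) of a marker list, 1 point per wound, coloured by bandage. Eno1 and Slc2a3 rise with the neutrophil score, Egln3 with wound keratinocytes, P4ha2 with fibroblast and matrix genes, Aldoa with skeletal muscle and Pfkfb3 with adipocytes.

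On the remaining lists few members were called, near or below the share of all genes called. On fibroblast and matrix genes there were 3 (9.32% of all genes, 5.32% with a slope above 0), P4ha2 with a slope of 1.25 (SE 0.25, adjusted p 0.00266), Hif1a with 1.10 (SE 0.24, adjusted p 0.00545) and P4ha1 with 1.24 (SE 0.35, edgeR adjusted p 0.0272). Only Hif1a was still called without CM1 4 and Ctrl 3, the 2 wounds farthest on that score. On skeletal muscle genes there was 1 (4.41% of all genes, 3.67% with a slope above 0), Aldoa, whose protein is the muscle aldolase, at 0.49 (SE 0.05, edgeR adjusted p 7.56e-07). Pgam1 had -0.26 (adjusted p 0.083) and Tpi1 0.24 (edgeR adjusted p 0.0855). Without Ctrl 1 the muscle count was 3 (4.37% of all genes), with Tpi1 at 0.27 (adjusted p 0.0304) and Pgam1 at -0.22 (adjusted p 0.0423).

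On adipocyte genes there were 2 (4.98% of all genes, 3.73% with a slope above 0), Pfkfb3 at 0.44 (SE 0.08, adjusted p 0.00172) and Aldoa at 0.41 (SE 0.11, edgeR adjusted p 0.0336), and Hif1a had -0.31 (adjusted p 0.11). On macrophage genes there was 1 (8.03% of all genes, 4.75% with a slope above 0), Car12, whose slope was -0.97 (SE 0.26, adjusted p 0.0252), while Gpi1 had 0.35 (adjusted p 0.264) and Pfkp -0.37 (edgeR adjusted p 0.328). The macrophage call was lost without Ctrl 6, CMA 5 or CMC 4. On endothelial genes edgeR called 0 (2.39% of all genes, 1.37% with a slope above 0). The smallest p there was that of Aldoc, with a slope of -0.88 (SE 0.37, unadjusted p 0.0274, edgeR adjusted p 0.222), before Pfkfb4 at 0.24 (adjusted p 0.313) and Tpi1 at -0.49 (adjusted p 0.36). Aldoa was thus called on muscle and adipocyte genes and Car12, with a slope below 0, on macrophage genes. Both had a median r near 0 and were called on neither the neutrophil nor the wound keratinocyte list.

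The other genes of these pathways were fitted in the same way. On the neutrophil list 10 of 34 other hypoxia genes were called, all above 0, among them Vegfa at 0.55 (adjusted p 0.000664), but 1 of 29 other glucose genes, the lactate carrier Slc16a1 at 0.20 (edgeR adjusted p 0.0234). On the skeletal muscle list (4.41% of all genes) 13 of the 29 glucose genes were called, all above 0. They included the muscle isoforms Pfkm at 0.88, Pgam2 at 0.93 and Eno3 at 1.08 and the insulin-responsive transporter Slc2a4 at 0.91. On the adipocyte list (4.98% of all genes) 8 of the 29 were called, among them Gpd1 at 0.95 and Pcx at 0.75. On fibroblast and matrix genes (9.32% of all genes) 9 of 34 hypoxia genes were called, 8 above 0, with Lox in both lists.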

How the data were processed

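RNA from 24 wounds was sequenced, and the authors deposited raw gene counts for 54232 genes. Per the submitters' processing notes, bcl2fastq 2.17, FastQC, cutadapt, STAR, featureCounts and DESeq2 were used with the build GRCm38, and per the labels' protocols ribosomal RNA was removed and libraries were made with a NEBNext Ultra kit. That kit does not mark strand, so reads of overlapping genes cannot be told apart. Symbols come from GENCODE M21 on GRCm38. Aldoa has 2 identifiers there, of which the 1 with 181978 counts was used and not the 1 with 408.

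The counts were fitted as deposited with edgeR 4.0.16 (filterByExpr, TMM scaling, robust quasi-likelihood) in R 4.3.3, with 1 term per group over all libraries. The Benjamini-Hochberg adjustment covered the 18978 genes tested, and a gene was called at an adjusted p under 0.05. Log2 CPM use a prior count of 2. For slopes, the mean log2 CPM of a marker list was added to the model. DESeq2 1.42.0, limma 3.58.1 (voom with quality weights), other scaling, no filter, fits of 2 groups and leaving out libraries were alternatives. The fits were tested on simulated data. Permutation tests are two-sided. Adjusted p values in the text are edgeR's.

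The members and the gene lists were chosen with earlier results of these data known. Named for each comparison with Ctrl are the 4 members with the smallest p, for those between media 2, for any difference 3, for slopes 3, the 5 pairs of largest r and 2 other pathway genes per comparison with Ctrl. Other genes named were chosen after their values were seen. Replicate numbers follow the order of deposit and pair no samples. The labels give mice per group, and p values measure the spread between these wounds.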

Additional observations from a re-analysis of the deposited data

Results flagged for a closer look

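In groups of 4 to 6 wounds a value was singled out when its gap to the nearest wound, relative to the range of the group, passed Dixon's 95% limit. That held for 17 of 165 gene and group combinations, where chance gives about 8.2 (1 in 20), and 8 of the 17 were in Ctrl 1. Ctrl 1 was the highest control for Slc2a1 (313 CPM, next 123), Pfkl (114, next 69.8), Pgk1 (235, next 156), Eno1 (549, next 325), Bnip3l (135, next 102), Ndrg1 (260.0, next 124), Adm (21.3, next 6.99) and Car9 (5.62, next 3.38). CMA 4 was highest of its group for Pkm (1050.0 CPM, next 795) and Slc16a3 (107, next 39.9). CM1 3 was highest of its group for Ldha (524, next 405) and Pdk1 (71.2, next 55.9). CMA 5 was lowest of its group for Hk2 (81.0, next 126) and Egln3 (78.0, next 209). CMC 3 was lowest for Hk2 (98.0, next 121.5), CM0 2 for Bnip3 (23.8, next 29.6) and CM1 2 for Ankrd37 (0.822, next 2.85). Neither CMA 4 nor CM1 3 was the highest of all 24 wounds for most members, at 5 and 1 of 33.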

How the results depend on the processing

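With all 24 libraries the count of called members was 0 in each of the 12 comparisons, and it stayed 0 with DESeq2, limma, RLE scaling, no filter, fits of 2 groups, without Ctrl 3, Ctrl 4 and CM1 3 together, and without each library in turn. No paired analysis was possible because replicate numbers were given in order of deposit. For the slopes, limma called 19 members on the wound keratinocyte list and 3 on the muscle list, and a fit without group terms called 3 on the muscle list. The shares of all genes called in these fits are not given, so these counts have no background beside them. Without Ctrl 3, Ctrl 4 and CM1 3 together, 2 were called on the macrophage list (4.57% of all genes) and 1 on the adipocyte list (5.26%). Slc2a3 then reversed to -0.62 in CM1 against Ctrl and 0.0315 in CMC against CM1. Chosen after seeing the data were 3 more alternatives. Without the 2 wounds farthest on a score, 12 members were called on the neutrophil list (5.22% of all genes) and 1 on fibroblast and matrix genes (3.18%). With both scores in 1 fit there were 8 on the neutrophil list (2.57% of all genes) and 1 on the wound keratinocyte list (3.02%). The shorter neutrophil list gave 21 (4.59%). With 1 library left out, the counts ran from 6 to 14 (wound keratinocyte, 2.57% to 5.21% of all genes) and 12 to 21 (neutrophil, 1.75% to 5.23%). They ran from 0 to 2 (macrophage, 3.3% to 8.51%), 1 to 3 (muscle, 2.93% to 4.93%) and 1 to 3 (adipocyte, 2.48% to 5.96%). Adm in CM0 against Ctrl ran from -0.72 to 0.0587, Slc2a3 in CM1 against Ctrl from -0.35 to 1.25 and in CMC against CM1 from -1.55 to 0.0288 on the log2 scale. The muscle count was 3 without Ctrl 1 or CM1 3 and 2 without CMA 4, CMC 1, CMC 2 or CMC 5. The macrophage count was 2 without Ctrl 3, and the adipocyte count was 1 without Ctrl 2, Ctrl 5, CM1 4, CMA 1, CMA 2, CMA 3 or CMC 1. The causes were not tested. At these depths Ankrd37 had as few as 10 counts in a library and Car9 15.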
